A study of Mus musculus with 30 samples.

Results

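Klotho and the main phosphate transporter of the kidney were followed in mouse kidney by all 3 probe sets that the array annotation gives to Kl (AB005141_at and AB005141_g_at) and to Slc34a1 (l33878_s_at), out of 13179 probe sets in all, that is by 2 genes of the 2674 named genes that could be tested. They were chosen by values on these same arrays: Kl after its readings in old kidneys had been seen, and Slc34a1 with its own readings known, as the transporter that klotho signalling controls. Their levels and differences are therefore given as a description with no test. The study measured total kidney RNA of C57BL/6 mice in 3 groups of 5 numbered samples: mice fed a calorie-restricted diet and aged 30 months (CR), control-fed mice aged 30 months (OC), and control-fed mice aged 5 months (YC). Each numbered sample was hybridised to 2 array types, called letter A and letter B after the sample titles, which gave 30 samples. All 3 member probe sets lie on letter A. The labels do not say how strongly the diet was restricted, what sex the mice were, or whether a numbered sample is 1 animal. Each is treated as 1 animal below, and if it is not, the p-values measure only the spread between these samples.

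Klotho is a membrane protein of the distal tubule, made to a lesser extent in the proximal tubule, that joins with an FGF receptor to bind FGF23, a hormone from bone. FGF23 and parathyroid hormone both lower the reabsorption of phosphate by taking the sodium-phosphate cotransporter NaPi-IIa, the product of Slc34a1, out of the brush border of the proximal tubule. FGF23 also lowers active vitamin D by acting on the enzymes that make it and break it down. Mice without klotho retain phosphate, calcify their vessels and die early with features that resemble ageing.

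The stretch just upstream of the transcript start is shown for each of the 2 genes, from RefSeq in build GRCm38.p6. Any link of these stretches to the levels of the genes with age or diet was not tested. Both windows lie on the + strand and run 5′ to 3′ from 250 to 31 bases before the start that the promoter table uses, at chr5:150952357-150952576 for Kl and chr13:55399398-55399617 for Slc34a1. Capitals mark matches, on either strand, to GGGCGG (the GC box) or GTTAAT (a core of the site of HNF1 factors, which are active in the proximal tubule).
Kl: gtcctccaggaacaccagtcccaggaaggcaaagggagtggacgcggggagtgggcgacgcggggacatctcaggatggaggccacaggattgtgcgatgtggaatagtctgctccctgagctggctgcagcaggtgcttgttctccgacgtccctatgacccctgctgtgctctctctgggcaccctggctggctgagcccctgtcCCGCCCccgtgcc
Slc34a1: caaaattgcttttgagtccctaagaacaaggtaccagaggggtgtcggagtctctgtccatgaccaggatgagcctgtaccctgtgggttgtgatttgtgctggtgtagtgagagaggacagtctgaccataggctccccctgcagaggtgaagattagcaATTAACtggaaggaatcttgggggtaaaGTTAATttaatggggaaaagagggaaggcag
The Kl window was GC-rich, with 65.0% G and C and 10 CG dinucleotides, against medians of 51.8% and 5 over the 32851 windows of the table. A higher GC content was found in 15.7% of the windows, and more CG dinucleotides in 30.7%. It held 1 match to GGGCGG, which 28.5% of all windows hold. The Slc34a1 window had 48.6% G and C and 1 CG dinucleotide. For it, 61.1% of windows had a higher GC content and 78.2% had more CG dinucleotides. It held 2 matches to GTTAAT, on opposite strands and not overlapping, and 5.82% of windows hold at least 1. A match is a stretch of letters and was not tested as a binding site.

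The deposited values are array intensities, scaled here to a common trimmed mean in each table. A value under the floor, which is the root mean square of the negative intensities (1103 on letter A, 1815 on letter B), carries no level. Testing took in the probe sets that exceeded the floor on 5 or more of a table's arrays, 4518 in number. Between 33.5% and 37.5% of letter A probe sets were above the floor on an array, and between 23.9% and 27.7% on letter B. Differences are given on the log2 scale as CR minus OC or OC minus YC, with a standard error (SE) from limma. Some markers of kidney tubules were well measured. Slc22a6 of the proximal tubule and Umod, Slc12a1 and Egf of the loop and distal tubule were above the floor in all 15 animals. Not every marker was: Pvalb of the distal tubule was above it in 0 of 5 CR, 2 of 5 OC and 4 of 5 YC animals. Of 32 proximal genes looked for, the arrays name 12, and 10 could be tested. Of 21 in the wider distal list they name 7, and 6 could be tested. Readings of RNA quality were uneven. The ratio of the 3′ to the 5′ control probe set of Gapdh on letter A was 1.4 in CR animal 4 and 2.05 in CR animal 5, against 0.978 to 1.01 in the other CR animals, 1.07 to 1.13 in OC and 0.935 to 1.02 in the 3 YC animals with a value. For beta-actin the ratio was 1.66 and 1.86 in CR animals 4 and 5, against 1.16 to 1.27 in the other CR animals, 1.08 to 1.39 in OC and 1.09 to 1.13 in YC. CR animals 4 and 5 thus stood apart, and the OC and YC ranges of the Gapdh ratio did not overlap. The part of RNA quality in the age differences was not tested, and the members' CR values are given with and without animals 4 and 5.

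Kl read lower in old kidneys than in young ones on either diet, and CR and OC kidneys lay close together. AB005141_at read 5009, 3754, 5948, 3790 and 4331 in CR animals 1 to 5. It read 5566, 5516, 2667, 4016 and 5228 in OC animals, and 6936, 6989, 7362, 8309 and 7238 in YC animals. Every old animal on either diet was below every young animal, while CR and OC overlapped over most of their range. The means were 4567 ± 925.0 in CR, 4599 ± 1249 in OC and 7367 ± 555 in YC (SD, n = 5 each), so that CR stood at 62.0% and OC at 62.4% of the YC mean. The log2 difference was 0.02 ± 0.19 (SE) for CR minus OC, -0.73 ± 0.19 for OC minus YC and -0.71 ± 0.19 for CR minus YC. In a whole kidney, fewer cells that make a transcript and less transcript in each cell cannot be told apart.

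The second Kl probe set, AB005141_g_at, gave the same order of groups but lay close to the floor. It read 1415, 1705, 1776, 734.2 and 1228 in CR animals, 1496, 1543, 970.3, 1418 and 1078 in OC animals, and 2960, 2467, 2659, 2591 and 2145 in YC animals. CR animal 4 and OC animals 3 and 5 were under the floor, so 4 of 5 CR animals and 3 of 5 OC animals had a measured level, against 5 of 5 in YC. Again no old animal reached the lowest young one, and CR and OC overlapped. The means were 1372 ± 419.3 in CR, 1301 ± 259.4 in OC and 2564 ± 296.4 in YC (SD, n = 5 each), which put CR at 53.5% and OC at 50.7% of the YC mean. The log2 difference, with values under the floor set to it, was 0.11 ± 0.16 for CR minus OC, -0.95 ± 0.16 for OC minus YC and -0.84 ± 0.16 for CR minus YC. The floor understates the age differences. Both probe sets are named after 1 sequence record, so they are not independent measurements of the gene.

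Slc34a1 gave a bright signal, 56.3 to 58.8 times the floor in the group means, and its groups lay close together. It read 57586, 68668, 64505, 67683 and 51961 in CR animals. It read 53623, 71071, 61591, 57896 and 70686 in OC animals, and 64859, 66710, 64873, 60200 and 67661 in YC animals. All 3 groups overlapped, and the highest and the lowest readings both came from old animals. The means were 62080 ± 7128 in CR, 62970 ± 7749 in OC and 64860 ± 2872 in YC (SD, n = 5 each), with CR at 95.7% and OC at 97.1% of the YC mean. The log2 difference was -0.02 ± 0.12 for CR minus OC, -0.05 ± 0.12 for OC minus YC and -0.07 ± 0.12 for CR minus YC.

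**Figure D1:**
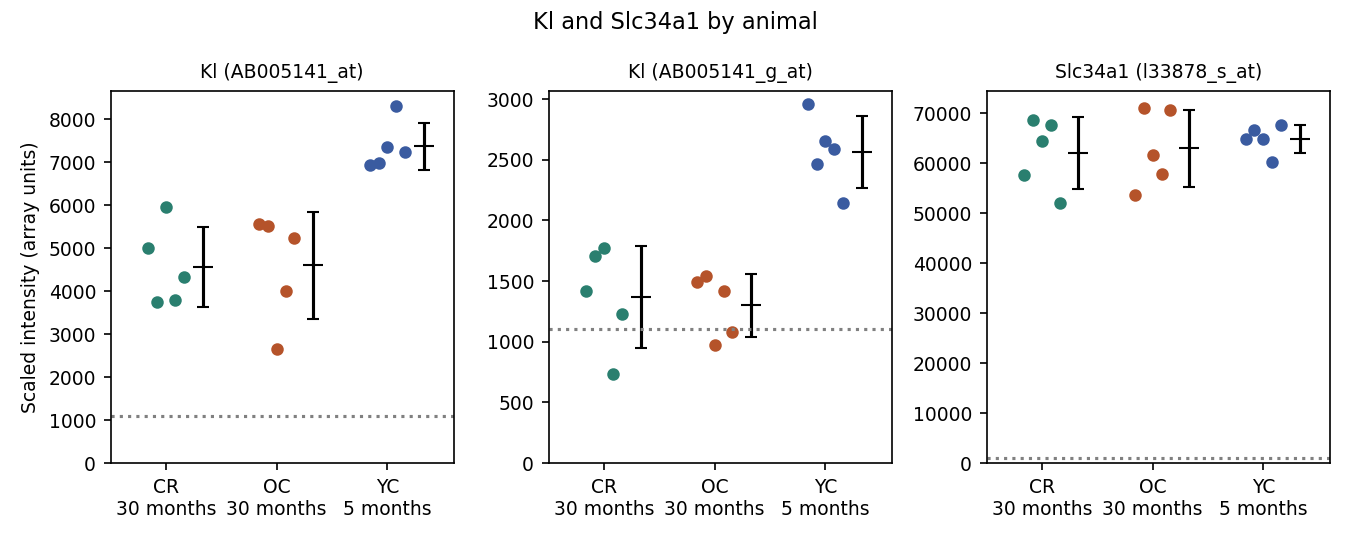
Scaled intensity (array units) of the 3 member probe sets, with 1 point per animal and the group mean ± SD as a bar beside the points (n = 5 each), for CR, OC and YC. The dotted line is the floor at 1103. Both Kl probe sets show CR and OC wholly below YC, and Slc34a1 shows 3 overlapping groups.

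For Kl AB005141_at and Slc34a1 the animals of the old groups were also more scattered in these samples. The share of all probe sets with such scatter was not computed, so it is not shown to be particular to these genes. The coefficient of variation of Kl AB005141_at was 20.3% in CR, 27.2% in OC and 7.53% in YC. That of Slc34a1 was 11.5% in CR, 12.3% in OC and 4.43% in YC. Single animals carry part of the scatter of the old groups. For Kl AB005141_at the coefficient was 13.9% in CR without animal 3 and 14.3% in OC without animal 3. That OC animal read 2667 against 4016 to 5566 in the others. For Slc34a1 the coefficient was 7.75% in CR without animal 5, which stood apart in RNA quality, and 10.1% in OC without animal 1. Without YC animal 4 the contrast widened, since the YC coefficient was 2.84% for Kl AB005141_at and 2.11% for Slc34a1. AB005141_g_at is left out here because some of its old readings lay under the floor.

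Against all 2609 tested letter A probe sets the Kl differences with age lay far to one side. Of these, 1.34% had a lower OC minus YC difference than AB005141_at, 0.613% a lower one than AB005141_g_at and 38.4% a lower one than Slc34a1, where the median was 0.03 and the quartiles -0.16 and 0.2. For CR minus OC the shares were 53.7%, 65.3% and 47.5% in the same order of probe sets, with quartiles at -0.19 and 0.19. Every OC animal lay below every YC animal for 2.41% of letter A probe sets, and every CR animal lay below every YC animal for 3.45%. Both held together for 1.07%, Kl's probe sets among them. CR and OC did not overlap, in either direction, for 3.6%, and no member was among these. Since Kl was chosen on these contrasts, its place among them is a description.

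**Figure D2:**
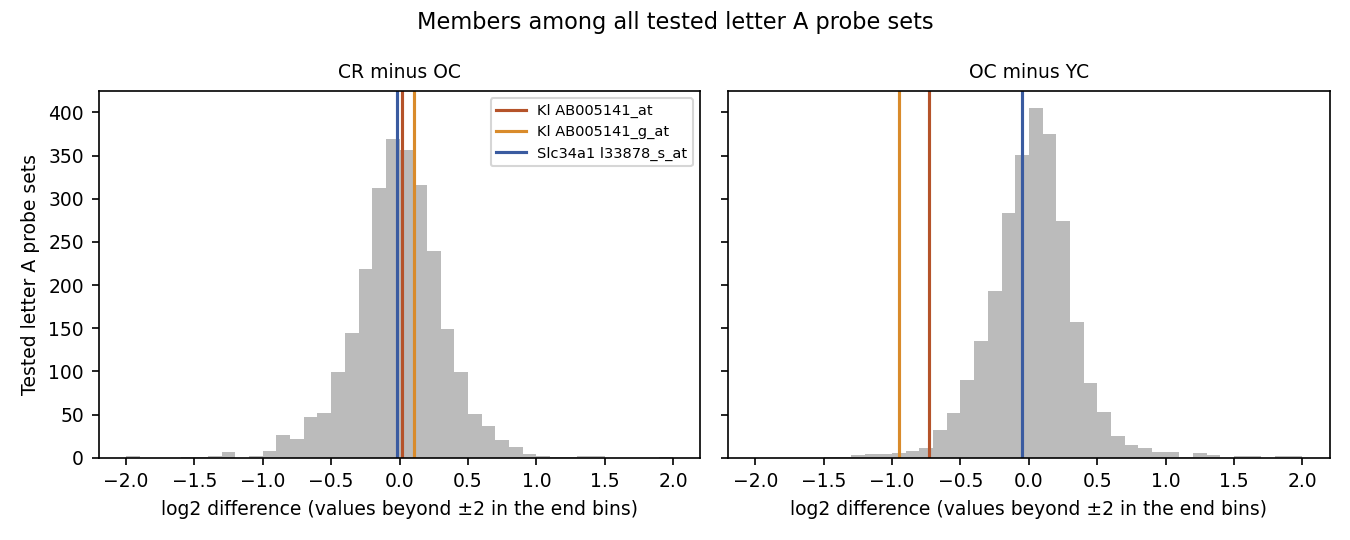
Number of tested letter A probe sets (vertical axis, of 2609) by log2 difference (horizontal axis), for CR minus OC and OC minus YC, with the 3 member probe sets as vertical lines. In CR minus OC all 3 lines stand near 0, and in OC minus YC the Kl lines stand at -0.73 and -0.95, in the low tail, with Slc34a1 at -0.05.

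The animals can be split by their title numbers, since those numbered 4 and 5 differed from those numbered 1 to 3 on some probe sets (Pth1r, below), although the labels name no batch. The age difference of Kl was of like size in both sets. OC minus YC was -0.71 over numbers 1 to 3 and -0.76 over numbers 4 and 5 for AB005141_at, and -0.98 and -0.91 for AB005141_g_at. CR minus OC changed sign between the sets, at 0.15 over numbers 1 to 3 and -0.18 over numbers 4 and 5 for AB005141_at, and 0.25 and -0.1 for AB005141_g_at. For Slc34a1, CR minus OC was 0.04 over numbers 1 to 3 and -0.11 over numbers 4 and 5. Without CR animals 4 and 5, CR minus OC was 0.12 ± 0.23 for AB005141_at, 0.3 ± 0.17 for AB005141_g_at and 0.02 for Slc34a1, and CR minus YC was -0.61, -0.65 and -0.03 in that order. Kl stayed lower in CR than in YC without these animals.

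Whether the members varied together from animal to animal was asked on deviations from the group means, which the choice of genes did not use, for 3 pairs over 15 animals. The Kl probe sets gave Pearson's r = 0.44 (permutation p = 0.0967, Benjamini-Hochberg adjusted p = 0.29) and Spearman's rho = 0.33 (permutation p = 0.222, adjusted p = 0.666). Without CR animal 3 and OC animal 3, the pair farthest from the median, r was 0.17, so the relation rests on those animals. It was 0.67 over numbers 1 to 3 (n = 9) and -0.24 over numbers 4 and 5 (n = 6). No relation of Kl with Slc34a1 was detected. AB005141_at gave r = -0.02 (permutation p = 0.934, adjusted p = 0.969) and rho = 0.06 (permutation p = 0.823, adjusted p = 0.823), with r = -0.16 without CR animal 3 and OC animal 3. AB005141_g_at gave r = -0.01 with Slc34a1 (permutation p = 0.969, adjusted p = 0.969) and rho = 0.06 (permutation p = 0.82, adjusted p = 0.823), with r = 0.07 without CR animals 3 and 4. Within the number sets AB005141_at and Slc34a1 gave -0.13 and 0.01, and AB005141_g_at and Slc34a1 gave 0.26 and -0.86, so the last pair had opposite signs in numbers 1 to 3 and numbers 4 and 5. Numbers 4 and 5 leave only a pair of animals in each group, whose deviations are equal and opposite. Their r thus rests on fewer independent values than n = 6 implies. For AB005141_g_at, CR animal 4 and OC animal 5 were also set to the floor.

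Of the other genes of the hormone axis, 26 were listed, 17 are named on these arrays and 8 were measured. None of the 8 passed limma at a Benjamini-Hochberg adjusted p of 0.05 in either comparison. Over all tested probe sets 0.907% passed that threshold as higher and 1.7% as lower for CR minus OC, and 2.99% as higher and 2.17% as lower for OC minus YC. Without the doubtful class of letter B described below, the shares for OC minus YC were 2.17% higher and 1.22% lower of 4433. At an unadjusted p of 0.05, 1 gene of the list was higher with the diet and 1 was higher with age, where 7.9% of all tested probe sets were higher and 6.73% lower for CR minus OC, and 7.04% higher and 9.32% lower for OC minus YC. The median of the list was -0.02 for CR minus OC and 0.12 for OC minus YC, against 0.03 and -0.04 over all tested probe sets. Among the receptors, Fgfr1, which pairs with klotho in the kidney, was above the floor on at most 1 array, as was Fgfr4, and Fgfr3 and the vitamin D receptor Vdr were above it on 0 arrays. Fgf23, Klb and Slc34a3 are not named on these arrays by the annotation used and could not be measured.

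Fgfr2, another FGF receptor, averaged 4530 ± 1692 in CR, 6526 ± 1912 in OC and 4287 ± 1409 in YC (SD, n = 5 each). Its log2 difference was -0.56 ± 0.28 for CR minus OC (limma adjusted p = 0.378) and 0.63 ± 0.28 for OC minus YC (adjusted p = 0.268), the age difference passing only with the number set as a term (adjusted p = 0.0364). Without CR animals 4 and 5, CR minus OC was -0.26. Pth1r, the receptor of parathyroid hormone, was split by number rather than by group. It read 9755 and 9298 in CR animals 4 and 5 against 4504 to 5494 in CR animals 1 to 3, 11264 and 10170 against 4327 to 5891 in OC, and 13642 and 13466 against 5517 to 6800 in YC. Within numbers 1 to 3 its OC minus YC difference was -0.3, and within numbers 4 and 5 it was -0.34, with an adjusted p of 0.112 when the number set was a term in limma. Its CR minus OC difference was -0.11 ± 0.33 with all animals and -0.5 without CR animals 4 and 5, which removes only high readings from CR.

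Cyp27b1, which makes active vitamin D, averaged 2552 ± 408.1 in CR, 3065 ± 1294 in OC and 2616 ± 222.3 in YC (SD, n = 5 each) by AB006034_at, with limma adjusted p = 0.704 for CR minus OC and 0.781 for OC minus YC. Its other probe set, AB006034_g_at, had differences of the opposite sign, 0.63 for CR minus OC and -0.38 for OC minus YC, so no direction is given for the gene. Cyp24a1, which breaks vitamin D down, was above the floor in 4 of 5 CR animals, 3 of 5 OC animals and 1 of 5 YC animals, and its adjusted p was 0.588 for CR minus OC. Adam10, a protease that sheds klotho from the cell surface, differed by -0.1 ± 0.14 for CR minus OC (adjusted p = 0.817) and -0.26 ± 0.14 for OC minus YC (adjusted p = 0.373).

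Sgk1, a kinase that FGF23 with klotho, and also aldosterone, switch on in tubule cells, had the largest diet difference of this list. It read 4764, 2746, 7095, 4067 and 3474 in CR animals, against 2134, 3577, 1286, 2657 and 1310 in OC animals and 1831, 2096, 1486, 921 and 1338 in YC animals. Every CR animal was above every OC animal other than OC animal 2. The CR minus OC difference was 1.05 ± 0.30 with a limma adjusted p of 0.0819, and it passed with the number set as a term (adjusted p = 0.0422) and without OC animal 2. Sgk1 rose in CR against YC, by 1.46 ± 0.3 (adjusted p = 0.00592), the 1 call of the 8 genes in that comparison, where 2.94% of all tested probe sets passed as higher and 2.77% as lower. Without CR animals 4 and 5 it was 1.56 (adjusted p = 0.0231).

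Of the genes of phosphate transport other than Slc34a1, 17 were listed, 8 are named on the arrays and 5 were measured. None passed in limma in either comparison. At an unadjusted p of 0.05, 1 was lower with age and 0 moved with the diet. The list's median was 0.09 for CR minus OC and 0.07 for OC minus YC. The gene lower at the unadjusted level was Pdzk1, a scaffold protein that holds NaPi-IIa and other transporters at the brush border. It read 15410, 17175, 13084, 12401 and 12560 in CR animals, 12073, 12003, 14727, 12998 and 14126 in OC animals, and 19314, 17307, 15598, 17388 and 21300 in YC animals. OC lay wholly below YC, and CR overlapped both. The difference was 0.09 ± 0.13 for CR minus OC (adjusted p = 0.81) and -0.46 ± 0.13 for OC minus YC (adjusted p = 0.0545), which passed with the number set as a term (adjusted p = 0.0373), with the floor doubled and without CR animal 2. Gabarap, an autophagy protein, differed by -0.02 ± 0.11 for CR minus OC and 0.07 ± 0.11 for OC minus YC. Cubn, a receptor for filtered proteins, differed by 0.2 ± 0.21 and 0.29 ± 0.21. On letter B, Slc17a1, an anion transporter once taken for a phosphate transporter, differed by 0.3 ± 0.16 and -0.3 ± 0.16, and Ezr, which ties brush border proteins to actin, by -0.4 ± 0.28 and 0.15 ± 0.28. The CR minus OC difference of Ezr was -0.81 over numbers 1 to 3, where it passed, and 0.22 over numbers 4 and 5. Without CR animals 4 and 5 the CR minus OC difference was 0.11 for Slc17a1, 0.06 for Cubn and 0.2 for Pdzk1. Slc20a1 and Slc34a2, other sodium-phosphate cotransporters, were above the floor on 0 arrays.

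The age differences of letter B genes carry a further limit. Among pairs of probe sets that share 1 sequence record under different name endings and differ clearly in level, the brighter one was not the same in OC as in YC for 25 of 26 pairs on letter B, against 0 of 23 on letter A. Between CR and OC this held for 0 of 27 pairs on letter B. None of the genes named here belongs to that class of letter B. The class still entered the adjustment of p-values, and without it the age calls of S100g and Egf, given below, were lost. On letter A, pairs of the kind that the Kl probe sets form kept their order between OC and YC in all 78 cases.

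Of the distal tubule genes of calcium transport, which sit in the cells where klotho is made, S100g and Calb1 were lower in old control kidneys. Of 12 listed, 5 are named on the arrays and all 5 were measured. With age 2 fell and 0 rose. OC minus YC ranged from -0.67 to -0.06 in this list, with a median of -0.4, against -0.04 over all tested probe sets. With the diet 0 passed, 2 were higher at an unadjusted p of 0.05, and the median of CR minus OC was 0.24, against 0.03 over all tested probe sets. S100g encodes calbindin-D9k and Calb1 calbindin-D28k, calcium-binding proteins that vitamin D induces.

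S100g read 40774, 53562, 34069, 60862 and 53359 in CR animals, 32417, 24048, 37826, 35775 and 30768 in OC animals, and 36525, 57004, 55417, 57398 and 47772 in YC animals. YC animal 1 lay within the OC range, and the other YC animals above it. The OC minus YC difference was -0.66 ± 0.18 (limma adjusted p = 0.0496) and CR minus OC 0.58 ± 0.18 (adjusted p = 0.13), or 0.4 without CR animals 4 and 5. The age call was lost in 21 of 30 alternatives, among them the omission of CR 1, 2 or 5, OC 1, 2, 4 or 5, or YC 2, 3, 4 or 5 (adjusted p from 0.0596 to 0.135).

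Calb1 read 1918, 2376, 3175, 2996 and 2421 in CR animals, 1553, 2200, 1747, 1930 and 2323 in OC animals, and 3738, 3349, 3152, 2974 and 2346 in YC animals. OC lay wholly below YC, by a narrow margin at YC animal 5. The OC minus YC difference was -0.67 ± 0.17 (limma adjusted p = 0.0265), at -0.91 over numbers 1 to 3 and -0.32 over numbers 4 and 5, and CR minus OC was 0.39 ± 0.17 (adjusted p = 0.288). The age call was lost in 9 of 30 alternatives, among them the omission of OC 1, 3 or 4 or YC 1, 2 or 3 (adjusted p from 0.0532 to 0.068). The 3 genes that did not pass lie on letter B. Slc12a3, the thiazide-sensitive cotransporter, differed by -0.06 ± 0.22 for OC minus YC, Slc8a1, the sodium-calcium exchanger, by -0.28 ± 0.17, and Pvalb, parvalbumin of the early distal convoluted tubule, by -0.4 ± 0.17 (limma adjusted p = 0.24). Pvalb, whose value is the median of the list, was above the floor in 0 of 5 CR, 2 of 5 OC and 4 of 5 YC animals.

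**Figure D3:**
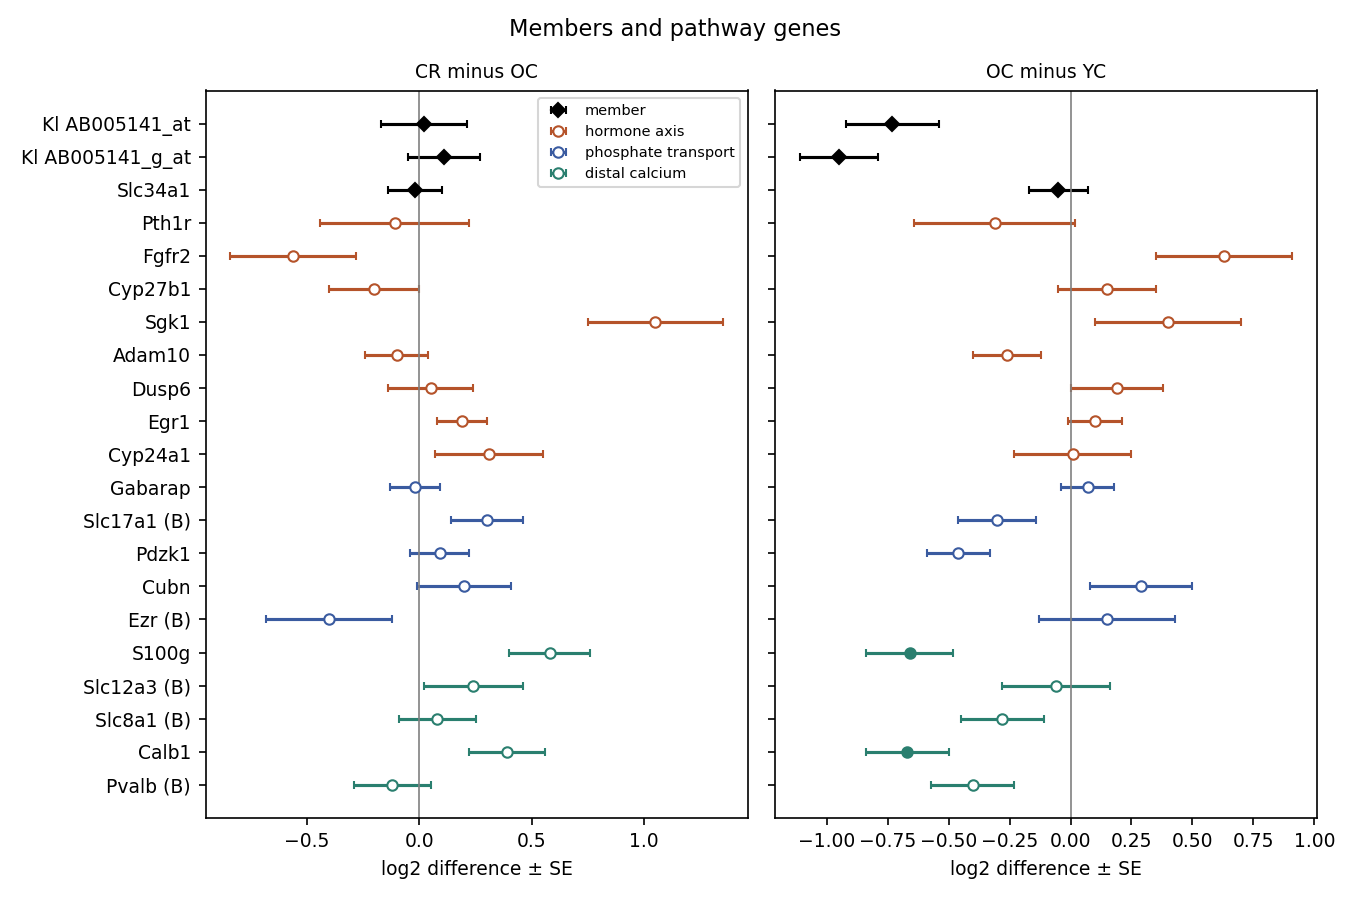
Log2 difference ± SE of the 3 member probe sets (diamonds) and of every measured gene of the hormone axis, phosphate transport and distal calcium lists (circles), for CR minus OC and OC minus YC. A filled circle passed limma at an adjusted p of 0.05, which only S100g and Calb1 did, with age, and (B) marks letter B genes. The horizontal scales of the panels differ.

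In the wider list of the loop, distal tubule and collecting duct, 21 genes were listed, 7 are named on the arrays and 6 were measured. With age 2 fell, Klk1 and Egf, and with the diet 1 rose, Egf. Over 30 alternatives, 0 to 2 genes of this list passed with the diet. The list's median was 0.35 for CR minus OC and -0.24 for OC minus YC. Klk1, tissue kallikrein of the connecting tubule, read 34195, 29933, 28521, 40199 and 41164 in CR animals, 18631, 17044, 24158, 23002 and 24326 in OC animals, and 26209, 42585, 46402, 50900 and 54364 in YC animals. OC lay wholly below both other groups. The difference was 0.7 ± 0.19 for CR minus OC (limma adjusted p = 0.0703) and -1.01 ± 0.19 for OC minus YC (adjusted p = 0.0029). Its probe set is of a family type, so reads of near-identical kallikreins may add to it.

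Egf, made in the distal convoluted tubule and thick limb, averaged 47460 ± 2663 in CR, 34900 ± 3476 in OC and 45680 ± 1904 in YC (SD, n = 5 each), on letter B. It differed by 0.45 ± 0.11 for CR minus OC (limma adjusted p = 0.0331) and -0.39 ± 0.11 for OC minus YC (adjusted p = 0.0395). The diet call was lost in 14 of 29 alternatives, among them the omission of CR 1, 2, 4 or 5 or OC 1, 3 or 5 (adjusted p from 0.056 to 0.0882), and of CR 4 and 5 together (adjusted p = 0.128). The age call was lost in 21 of 29, among them the omission of any 1 animal other than CR 3, CR 4 and OC 2 (adjusted p from 0.0509 to 0.0984). Slc12a1 and Umod of the thick limb differed by 0.16 ± 0.15 and 0.22 ± 0.2 for OC minus YC and did not pass.

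The letter A distal genes that passed with age were set beside Kl as a share of each probe set's own YC mean, and they were picked for being low in OC. Gatm of the proximal tubule (below) and Egf of letter B passed with age too. Gatm ranged from 41.1% to 72.6% in CR and 43.9% to 62.8% in OC, and Egf from 98.5% to 113.0% and 70.0% to 89.0%. In CR kidneys Kl AB005141_at ranged from 51.0% to 80.7%, S100g from 67.0% to 120.0%, of Calb1 from 61.6% to 102.0% and of Klk1 from 64.7% to 93.4%. In OC kidneys Kl AB005141_at ranged from 36.2% to 75.5%, S100g from 47.3% to 74.4%, Calb1 from 49.9% to 74.6% and Klk1 from 38.7% to 55.2%. The ranges of the letter A genes overlap in CR, and that of Egf lies above that of Kl. Whether the diet acted differently on Kl than on these genes was not tested. Summed over the 4 distal genes of letter A, intensity ranged from 72350 to 87140 in CR, 53760 to 72760 in OC and 64620 to 85990 in YC. Summed over S100g and Calb1 it ranged from 37240 to 63860 in CR, 26250 to 39570 in OC and 40260 to 60370 in YC. OC lay wholly below YC only in the second sum, which S100g dominates, and the part of distal cell content in the Kl difference was not tested.

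**Figure D4:**
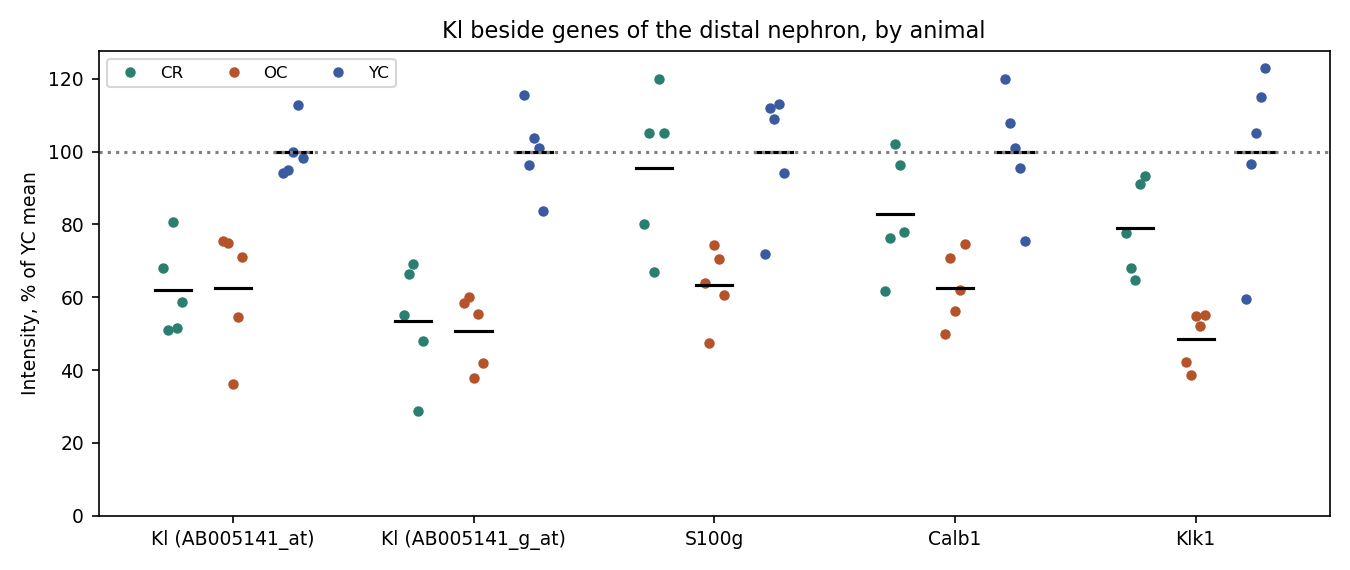
Intensity of both Kl probe sets and of the letter A distal genes that passed with age (S100g, Calb1, Klk1), in percent of each probe set's own YC mean, with 1 point per animal and a bar at the group mean. For Kl the CR and OC bars stand at like heights, at 62.0% and 62.4% for AB005141_at, and for the other genes drawn the CR bar stands above the OC bar. The genes drawn beside Kl were picked for being low in OC. Gatm and Egf, which passed with age too, are not drawn. The CR mean was below the OC mean for Gatm (2107 and 2295) and above it for Egf (47460 and 34900).

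Among proximal tubule genes, the segment that holds Slc34a1, 32 were listed, 12 are named on the arrays and 10 were measured. With age 1 fell, Gatm, which makes the creatine precursor guanidinoacetate, and with the diet 0 passed (1 was lower at an unadjusted p of 0.05). The median was -0.05 for CR minus OC and -0.2 for OC minus YC. Gatm read 1718, 2004, 1915, 1864 and 3035 in CR animals, 2270, 2120, 1836, 2623 and 2626 in OC animals, and 4210, 4426, 4745, 4105 and 3408 in YC animals, so that both old groups lay wholly below YC, as Kl did. Its OC minus YC difference was -0.87 ± 0.16 (limma adjusted p = 0.00262), at -1.11 over numbers 1 to 3 and -0.51 over numbers 4 and 5, and CR minus OC was -0.14 ± 0.16 (adjusted p = 0.745). The brightest genes of the list, Ass1 on letter B and Slc27a2, a fatty acid transporter, differed by -0.27 ± 0.18 and 0.01 ± 0.19 for OC minus YC. The summed letter A intensity of 7 proximal genes was 114200 to 132700 in CR, 114700 to 166100 in OC and 139500 to 194600 in YC. It was wholly lower in CR than in YC. In that comparison 4 of the 10 genes fell and 0 rose: Gatm (-1.01 ± 0.16, limma adjusted p = 0.000771), Fbp1 (-0.64 ± 0.14, adjusted p = 0.0108) and the brush border proteases Mep1a (-0.8 ± 0.18, adjusted p = 0.0123) and Mep1b (-1.06 ± 0.25, adjusted p = 0.0154). Without CR animals 4 and 5 Gatm alone passed (adjusted p = 0.000462), with Fbp1 at -0.45 (adjusted p = 0.099), Mep1a at -0.65 (adjusted p = 0.0746) and Mep1b at -0.69 (adjusted p = 0.126).

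Most of the measured leukocyte markers, and some of stroma, moved with age too. Of 12 measured leukocyte genes, of 16 listed, 8 rose with age and 6 fell with the diet (limma). Ptprc, Cd68, Cd3e and Cd79b passed in neither comparison. Ptprc differed by 0.22 ± 0.16 for OC minus YC (limma adjusted p = 0.549), so the list did not move as a whole. Their medians were -1.03 for CR minus OC and 1.24 for OC minus YC, which understate the shift where a group lay under the floor. Cd74, the invariant chain of antigen presentation on letter B, was above the floor in every animal and differed by -1.15 ± 0.16 (adjusted p = 0.000442) and 1.77 ± 0.16 (adjusted p = 5.21e-07). The letter A sum over 9 leukocyte genes was 26020 to 49740 in CR, 71540 to 94340 in OC and 19900 to 24680 in YC. Much of the OC sum came from Igha, an immunoglobulin gene, which averaged 9440 in CR, 41010 in OC and 1751 in YC. Of 8 measured stroma and smooth muscle genes, of 11 listed, 2 rose with age, Dcn and Tagln, and 0 passed with the diet (2 were lower at an unadjusted p of 0.05). Dcn differed by 0.83 ± 0.21 (adjusted p = 0.0235) and Tagln by 0.74 ± 0.17 (adjusted p = 0.0117) for OC minus YC, the Dcn call being lost without OC 1, OC 4, YC 3 or YC 5 (adjusted p from 0.0555 to 0.0733). The letter A sum over 2 stroma genes was 3850 to 6371 in CR, 4752 to 6690 in OC and 3342 to 4176 in YC. Markers of glomerulus and endothelium, adrenal, fat and red cells had 2, 2, 2 and 1 measured genes, of which 0 passed in either comparison; at an unadjusted p of 0.05, Eng and Hba-a1 were higher with age and Kdr was lower with the diet. Between CR and YC 3 leukocyte genes rose, Igha, Jchain and Cd74, and 1 stroma gene, Acta2 (limma). The Cd74 call was lost without CR 1, 4 or 5 or YC 1, 4 or 5 (adjusted p from 0.0501 to 0.0685), and the Acta2 call without CR 1, 2, 3 or 4, OC 1 or any 1 YC animal (adjusted p from 0.0513 to 0.108). The leukocyte sum in CR lay wholly below OC and wholly above YC. Kl overlapped between CR and OC, and both lay wholly below YC. The part of these cells in the age difference of Kl was not tested.

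For each member the genes of letter A with the most similar pattern were ranked by Pearson's r of log2 values over the 15 animals, among 2124 named genes. These are descriptions of arrays that share scaling and RNA quality, and a group difference shared by 2 genes raises r by itself, so r of the deviations from group means is given second. For Kl AB005141_at the highest were Cmtm6 (0.84 and 0.77), Arpc5l (0.78 and 0.62), Znrf2 (0.77 and 0.31), Atp5k (0.75 and 0.49) and Fbp1 (0.75 and 0.42). The lowest were Rpl8 (-0.86 and -0.61), Ubr4 (-0.82 and -0.72) and Ltc4s (-0.81 and -0.61). Cmtm6, which keeps membrane proteins from degradation, averaged 3955 in CR, 4755 in OC and 6095 in YC, and Fbp1 is an enzyme of glucose synthesis in the proximal tubule.

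For Kl AB005141_g_at the highest were Hsd3b2 (0.87 and 0.27), Idi1 (0.85 and 0.14), Amacr (0.83 and 0.2), 4833439L19Rik (0.83 and 0.82) and Acad9 (0.82 and 0.36), and the lowest S100a6 (-0.89 and -0.59), Ifngr1 (-0.83 and -0.58) and Rpl8 (-0.81 and -0.28). Of the 5 highest genes none was shared between the Kl probe sets, and Rpl8, a ribosomal protein, was among the lowest for both. The CR and OC means of Hsd3b2 (562 and 678.9) and Idi1 (603.2 and 666.4) were under the floor, so these genes entered the ranking through YC (1741 and 1795), and the CR means of Acad9 and, for AB005141_at, Znrf2 were under it too. Most of the likeness of Hsd3b2, Idi1 and Amacr was between groups, since their r fell to between 0.14 and 0.27 once group means were removed. Amacr, an enzyme of branched-chain fatty acid oxidation, differed by -0.2 for CR minus OC and -1.06 for OC minus YC.

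For Slc34a1 the highest was a T cell receptor segment, Trbv13-2 (0.95 and 0.96), whose probe set read 942 to 1690 in CR, 724 to 1912 in OC and 1355 to 1549 in YC, close to the floor. It was followed by Gna13 (0.75 and 0.78), Slc27a2 by its g probe set (0.68 and 0.74), Rarg (0.65 and 0.69) and Klf1 (0.63 and 0.62). The lowest were 6430706D22Rik (-0.69 and -0.67), Id2 (-0.65 and -0.64) and Sugt1 (-0.63 and -0.65). Here r changed little once group means were removed, since the groups of Slc34a1 hardly differ. Over all 15 animals Kl and Slc34a1 had r = 0.15 by AB005141_at and 0.18 by AB005141_g_at, while the Kl probe sets had r = 0.81 with each other, most of it the difference between old and young.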

How the data were processed

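Kidney total RNA was measured on 2 array types, letter A and letter B, in 15 numbered samples, 30 in all, with groups and numbers taken from the titles. The deposited values are array intensities, 1 whole number per probe set and often negative, as the files show. For these deposited intensities, the software, background step and scaling were not given in the sources used here. Depth has no meaning for arrays, and 5 animals a group limit the precision.

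Arrays of a table were brought to 1 mean, computed without the lowest and highest 2% of values (factors 0.997 to 1.01), then raised to the table's floor and taken to log2. Left out were 122 control rows and 77 rows with blanks, 16 of them not controls. Symbols came from array annotation: 7561 probe sets had 1, of which 7544 were updated by gene number through RefSeq (GRCm38.p6). All 3 groups were fitted together, both tables stacked by animal, by lmFit and eBayes of limma 3.58.1 (R 4.3.3), with Benjamini-Hochberg adjustment over 4518 probe sets at 0.05. The fit was tested on simulated data. Correlations used 100000 permutations in scipy 1.17.1 under Python 3.11.15, and figures matplotlib 3.10.9.

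The members and the 11 gene lists were chosen with earlier results of these data known. A gene with several probe sets is represented by its brightest. The rule for names was all member probe sets, every list gene that passed, up to 6 others of each of the 3 pathway lists by brightness, up to 4 and the 2 brightest of other lists, and the 5 most and 3 least similar genes per member. Egr1 and Cyp24a1, Ptprc, Cd68, Cd3e and Cd79b, and Eng, Kdr, Hba-a1 and the genes that were not measured, were named outside it, after their values were seen. Same-numbered animals correlated in their deviations with a mean r of 0.261 (-0.0149 to 0.489), against -0.0644 for animals of other numbers, and over 0.1 in 13 of 15 pairs. Numbers were to be taken as pairs only if every pair passed 0.1, which was not met, but a shared number effect is not excluded. Fits with the number set as a term are given where they change an age or diet call of the 3 pathway lists. For the other lists such changes are not all given. CR minus YC calls of the lists were added after the data were seen. Alternatives were other scaling, floors, filters and transforms, a replicate block, number sets and the omission of animals.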

Additional observations from a re-analysis of the deposited data

Results flagged for a closer look

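Of 63 groups of 5 animals examined over the members and pathway genes, 6 had 1 animal set apart from the other 4 by more than Dixon's limit of 0.71 of the group's range. Chance sets about 1 group in 20 apart in this way where no value is set to a floor, and 4 of the 6 involve values set to it, so the count is not read against that rate. None of the 6 was a member. OC animal 3 was high for Cyp27b1 by AB006034_at, at 5346 against 2252 to 2848 in the other OC animals, and for Gabarap, at 29770 against 24040 to 25420. The same animal had the lowest reading of Kl AB005141_at, at 2667. Cyp24a1 was high in OC animal 1, at 1790 against 1103 to 1297, and in YC animal 1, at 2020, where the other YC animals were at the floor of 1103. Egr1, a gene that growth factor signals induce, was at the floor of 1103 in CR animal 5, against 1369 to 1438 in the other CR animals. Pvalb was high in OC animal 5, at 2646 against 1815 to 1860, where the lowest value is the letter B floor. Values at a floor are bounds and not levels. The part of RNA quality or of single arrays in these readings was not tested.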

How the results depend on the processing

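No member difference moved by more than 1 SD between animals, over 30 alternatives for Kl AB005141_at and Slc34a1 and 29 for Kl AB005141_g_at, which was not tested with the floor doubled. OC minus YC ranged from -0.81 to -0.54 for AB005141_at, from -1.01 to -0.84 for AB005141_g_at and from -0.1 to 0.03 for Slc34a1. With 1 animal left out the ranges of OC minus YC were -0.81 to -0.54, -1.01 to -0.89 and -0.1 to 0.01, those of CR minus OC were -0.16 to 0.1, 0.03 to 0.2 and -0.08 to 0.04, and those of CR minus YC were -0.81 to -0.64, -0.92 to -0.75 and -0.11 to -0.01. Under a replicate block OC minus YC was -0.73 ± 0.21 for AB005141_at, and 277 probe sets passed with age and 170 with the diet, against 233 and 118. The block ended the age call of Egf (adjusted p = 0.0557) and no other call of a list gene. The age count of 233 was 155 with no filter, 151 over numbers 1 to 3, 119 over numbers 4 and 5, 150 without the letter B probe sets of several suffixes and 73 on letter A alone, both added after seeing the data, and 179 to 254 with 1 animal left out. It was 349 with the number set as a term. The diet count of 118 was 47 with no filter, 50 with 10 arrays above the floor required, 224 with the number set as a term, 253 over numbers 1 to 3, 5 over numbers 4 and 5, 70 with only CR and OC fitted, 69 without CR animals 4 and 5 and 29 on letter A alone, the last pair added after seeing the data. It was 73 to 133 with 1 animal left out, at 73 without CR 1 and 78 without CR 5. Over numbers 4 and 5, r was -0.24 between the Kl probe sets and -0.86 between AB005141_g_at and Slc34a1, from 6 animals whose deviations mirror each other within each group. Fewer probe sets or animals enter several of these settings, and otherwise the cause was not tested. Low signal limits AB005141_g_at, 1.24 times the floor in CR, 1.18 times in OC and 2.33 times in YC.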
